A study of Caenorhabditis elegans with 2 samples.

Results

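The microRNA genes of C. elegans were examined for binding by SOX-2 in late embryos. They comprise the 261 genes of miRNA biotype on the nuclear chromosomes in the Ensembl annotation of WBcel235, of 46890 annotated nuclear genes, and they lie at 197 loci when genes within 10000 bp of each other are joined. Each gene was paired with every peak summit within 2000 bp of it in the ranked peak list of the series. That list holds 8504 peaks, of which 18 are mitochondrial. A further 440 nuclear summits within 500 bp of a tRNA, snoRNA or snRNA gene were left out, and 8046 were kept. Of these, 106 lay within 2000 bp of a microRNA gene.

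The samples were whole late embryos of strain RW12244, collected 3.5 hours after egg bleaching, in which CRISPR inserted a TY1::EGFP::3xFLAG tag at the endogenous sox-2 gene on chromosome X. The tagged protein was immunoprecipitated with an anti-GFP antibody from sonicated chromatin (200 to 800 bp), and the DNA was sequenced (ChIP-seq). The series holds 1 group with biological replicates 1 and 2 and no second condition, and the control named in the labels was not analysed here. Both replicates carry the same tagged allele, and a whole embryo mixes all its cell types, so a peak cannot be placed in any cell type.

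SOX-2 is a transcription factor with an HMG box, best known in animals for its part in progenitor cells and in the nervous system. A microRNA is cut from a hairpin in a longer transcript, and bases 2 to 8 of the mature strand, the seed, pair with target messenger RNAs, so microRNAs with the same seed form families that can share targets. In C. elegans, the mir-35 and mir-51 families are each needed for embryos to survive, while lin-4 and let-7 are the classical timers of larval development.

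Mature products of the microRNAs described most fully here are shown by seed, because every member of the first seed family lay near a peak past the authors' threshold. Sequences are from the RefSeq genome and annotation of WBcel235, where 260 of the 261 genes had mature products, and capitals mark the seed. The first 6 lines share the seed ACCCGUA, the next 3 share UGAGCAA, and the last 2 belong to mir-58a and mir-228.
mir-51: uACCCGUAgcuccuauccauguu
mir-52: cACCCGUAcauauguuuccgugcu
mir-53: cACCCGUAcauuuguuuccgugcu
mir-54: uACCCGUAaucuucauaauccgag
mir-55: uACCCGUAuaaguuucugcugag
mir-56: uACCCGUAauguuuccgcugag
mir-87: gUGAGCAAaguuucaggugugc
mir-233: uUGAGCAAugcgcaugugcggga
mir-356a: uUGAGCAAcgcgaacaaauca
mir-58a: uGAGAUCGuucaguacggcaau
mir-228: aAUGGCACugcaugaauucacgg

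The DNA under 4 peaks past the threshold is shown, each with its summit within 100 bp of a microRNA gene. All 4 are on ce11 and printed along the strand of the gene. Shown are the peaks of mir-51 (IV:11026086-11026322, minus strand), mir-52 (IV:14033977-14034164, plus strand) and mir-53 (IV:11027630-11027913, minus strand). Their capitals mark the bases of the annotated microRNA gene that lie within the peak. These are all 100 bp of mir-52, but only the first 27 of 100 bp of mir-51 and the first 62 of 99 bp of mir-53. The peak at mir-87 (V:12038482-12038765, minus strand) starts inside the gene and runs past its 3′ end. Its capitals mark instead the SOX core motif CATTGT, which reads as its reverse complement on this strand, and the gene is left in lower case.
mir-51 peak: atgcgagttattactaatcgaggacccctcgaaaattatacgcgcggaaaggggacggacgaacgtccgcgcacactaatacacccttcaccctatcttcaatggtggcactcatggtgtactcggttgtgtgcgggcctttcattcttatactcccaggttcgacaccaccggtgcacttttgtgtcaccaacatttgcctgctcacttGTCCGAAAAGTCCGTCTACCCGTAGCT
mir-52 peak: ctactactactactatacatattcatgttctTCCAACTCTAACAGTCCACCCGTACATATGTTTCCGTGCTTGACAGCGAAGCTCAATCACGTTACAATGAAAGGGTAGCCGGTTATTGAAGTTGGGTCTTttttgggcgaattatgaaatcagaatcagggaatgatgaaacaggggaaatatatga
mir-53 peak: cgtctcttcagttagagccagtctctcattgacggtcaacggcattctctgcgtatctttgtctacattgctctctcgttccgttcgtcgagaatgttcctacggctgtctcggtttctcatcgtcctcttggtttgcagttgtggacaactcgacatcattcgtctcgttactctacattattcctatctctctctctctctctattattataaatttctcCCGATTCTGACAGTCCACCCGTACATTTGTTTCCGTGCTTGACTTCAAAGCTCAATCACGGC
mir-87 peak: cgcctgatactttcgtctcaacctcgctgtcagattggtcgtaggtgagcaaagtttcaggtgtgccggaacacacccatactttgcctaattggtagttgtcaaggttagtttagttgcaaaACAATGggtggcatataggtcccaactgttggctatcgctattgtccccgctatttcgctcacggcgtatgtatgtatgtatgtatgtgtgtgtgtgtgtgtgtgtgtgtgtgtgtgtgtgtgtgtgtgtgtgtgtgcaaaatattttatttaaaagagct
The summit is base 112 of the mir-51 peak, base 40 of the mir-52 peak, and base 142 of the mir-53 and mir-87 peaks. At mir-51 and mir-53 it falls in the sequence before the gene, at mir-52 inside the gene itself, and at mir-87 past the gene. Another such summit, 47 bp from mir-5549, lay at the promoters of protein-coding genes and is not printed.

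Of the 261 microRNA genes, 101 (38.7%, Wilson 95% interval 33.0 to 44.7) had a kept ranked summit within 2000 bp, against 27.1% of protein-coding genes at their 5′ ends (5419 of 19973) and 25.8% of all nuclear bases. A ranked list is long and includes weak peaks, so the authors' thresholded list was counted apart. It holds the 677 peaks that the authors retained with an IDR of at most 1%. The IDR, or irreproducible discovery rate, is low where repeat rankings agree in placing a peak high. Weak peaks with like replicate signals can have a high IDR. Thresholded summits lay near 14 microRNA genes (5.36%, 3.22 to 8.80), against 2.52% of protein-coding genes (504 of 19973) and 1.84% of nuclear bases. These 14 genes lie at 10 of the 197 loci (5.08%), because clustered genes share summits. By loci, ranked summits stood at 76 of 197 (38.6%). Neighbouring genes are not independent and the intervals cover counting error over genes only. No test was run on these shares.

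Among the 106 summits, 13 were thresholded (12.3%, 7.31 to 19.9), against 5.98% of all kept ranked summits (481 of 8046). The 14 genes were mir-51, mir-52, mir-53, mir-54, mir-55, mir-55b, mir-56, mir-58a, mir-59, mir-87, mir-228, mir-2215, mir-4937 and mir-5549. The stricter conservative list of the authors also reached 14 genes, 13 of them shared. It lacked a summit at mir-4937 and had one at mir-62.

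**Figure D1:**
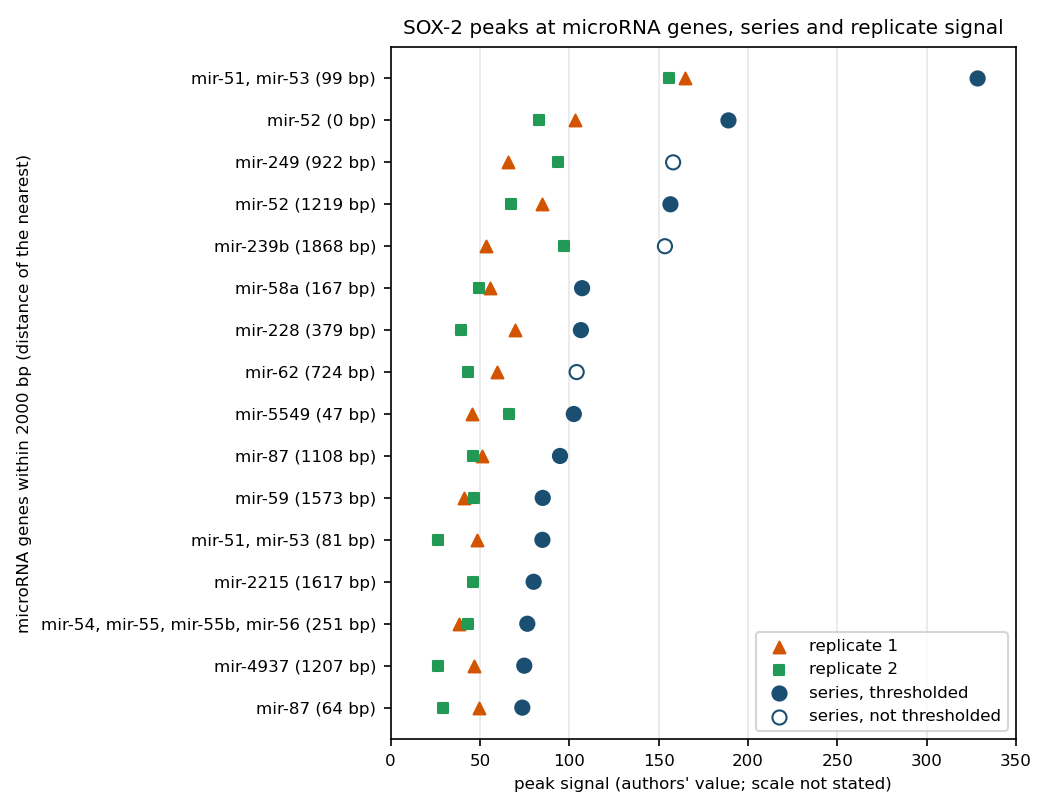
Signal of the thresholded summits near microRNA genes and of 3 strong summits that were not thresholded. Circles give the series list, triangles replicate 1 and squares replicate 2. The x axis is the authors' peak signal, and each row names the genes within 2000 bp and the distance of the nearest. The summit at mir-51 and mir-53 is highest in the series (328.5) and in both replicates, and mir-2215 has no replicate 1 value.

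The strongest microRNA peak lay just upstream of mir-51. The mir-51 family, which is related to the miR-100 microRNAs of other animals, had all of its 6 members near a thresholded summit, at 3 loci and with 5 thresholded summits. The summit at IV:11026211 stood 99 bp upstream of mir-51 and had a series signal of 328.5. By signal it had rank 22 among the 8046 kept summits, the base of all ranks given here. Its signal was 165.0 in replicate 1 and 155.9 in replicate 2, a mean of 160.4 ± 6.42 (SD, n = 2). Both replicates placed it past their own thresholds.

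The same locus on chromosome IV carries mir-53, transcribed in the same direction as mir-51 and upstream of it. A second thresholded summit lay 81 bp upstream of mir-53, with a series signal of 84.96, and 48.2 in replicate 1 and 26.4 in replicate 2 (37.3 ± 15.4, SD, n = 2). This weaker summit passed the threshold of neither replicate alone and was not in the conservative list. Between the genes, a ranked summit with a signal of 58.7 had an IDR of 34.4% and was not thresholded.

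At mir-52, which lies elsewhere on chromosome IV, both kept summits were thresholded, passed in both replicates and were in the conservative list. The first fell inside the mir-52 hairpin gene, 8 bp past its 5′ end, with a series signal of 189.1 (rank 62), and 103.3 in replicate 1 and 83.0 in replicate 2 (93.2 ± 14.4, SD, n = 2). The other lay 1219 bp upstream, with a series signal of 156.6 (rank 90), and 84.7 in replicate 1 and 67.5 in replicate 2 (76.1 ± 12.1, SD, n = 2). Replicate 1 was the higher of the replicates at all 4 thresholded summits of mir-51, mir-53 and mir-52.

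On chromosome X, mir-54, mir-55 and mir-56 form a cluster inside an intron of F09A5.3, on the opposite strand, and mir-55b is annotated on the strand opposite mir-55. Their shared thresholded summit lay 251 bp downstream of mir-56, the last gene of the cluster, with a series signal of 76.5, and 38.3 in replicate 1 and 43.3 in replicate 2 (40.8 ± 3.59, SD, n = 2). It passed in replicate 2 only and was in the conservative list. The cluster had 3 further ranked summits without a call, with signals of 73.5, 53.0 and 42.8. Over its 3 loci, the family had 10 ranked summits with a median signal of 74.99, against 45.3 for all 106 summits near microRNA genes and 40.3 for all kept summits.

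**Figure D2:**
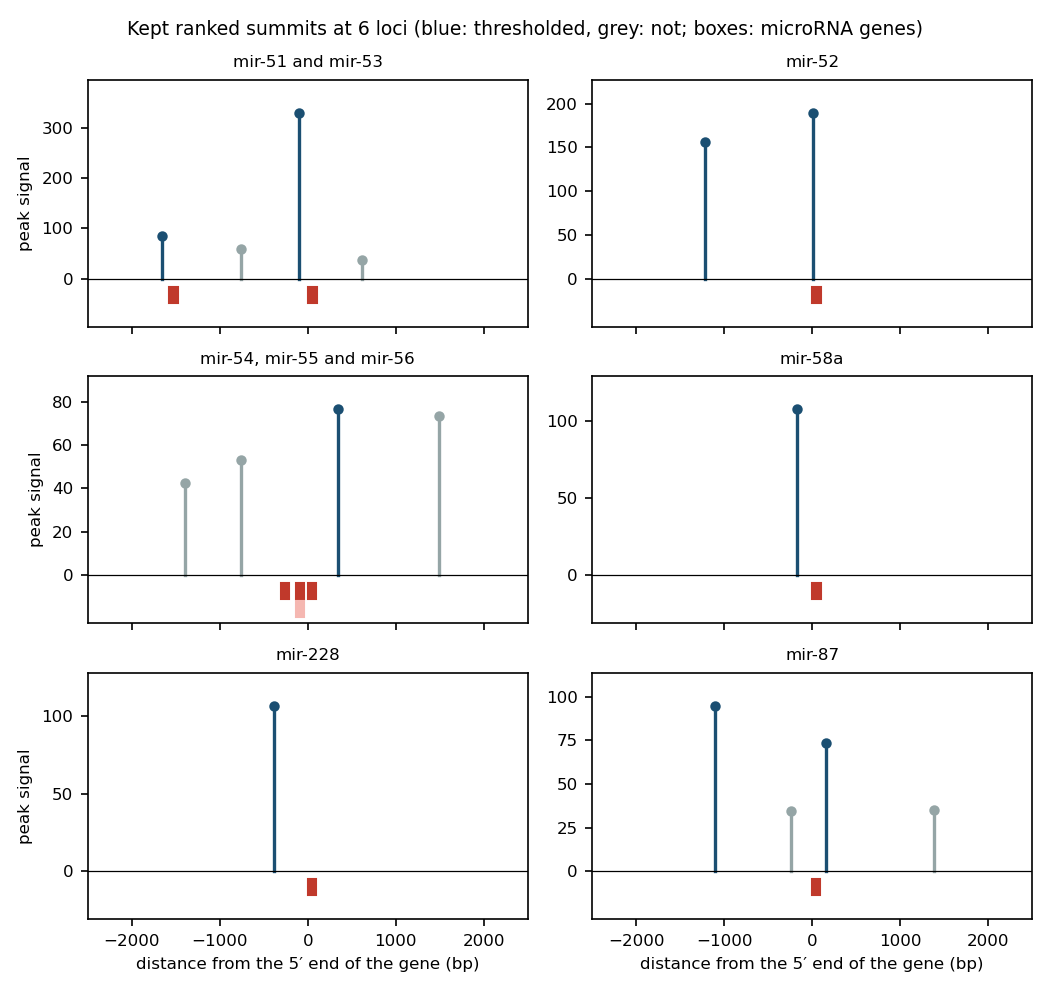
Kept ranked summits within 2000 bp of a microRNA gene at 6 loci. Kept summits farther from every microRNA gene are not drawn. The x axis is the distance from the 5′ end of mir-51, mir-52, mir-56, mir-58a, mir-228 or mir-87, along the direction of that gene, and the height of each line is the series signal. Boxes below the axis are microRNA genes, lighter and lower for mir-55b on the other strand. Thresholded summits (blue) stand upstream of mir-51, mir-52, mir-53, mir-58a and mir-228, and inside mir-52. Others stand downstream of mir-56 and on both sides of mir-87.

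Seed families were then compared as wholes, since members at separate loci have separate flanking sequence. Among all mature products, 16 seeds were shared by 3 or more genes. The ACCCGUA group of mir-51 to mir-56 was the single group in which every gene had a thresholded summit. In 1 other group, UGAGCAA, any gene did, namely mir-87, while mir-233 and mir-356a had ranked summits without a call. The thresholded gene mir-58a falls in none of the 16 groups, because its seed is GAGAUCG and that of mir-80, mir-81 and mir-82 is GAGAUCA. All 8 genes of the mir-35 family had ranked summits, and none had a thresholded one within 2000 bp. Over all 261 microRNA genes, 38.7% had a ranked and 5.36% a thresholded summit. Groups are small and their clustered genes share summits, so the counts describe loci more than genes.

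**Figure D3:**
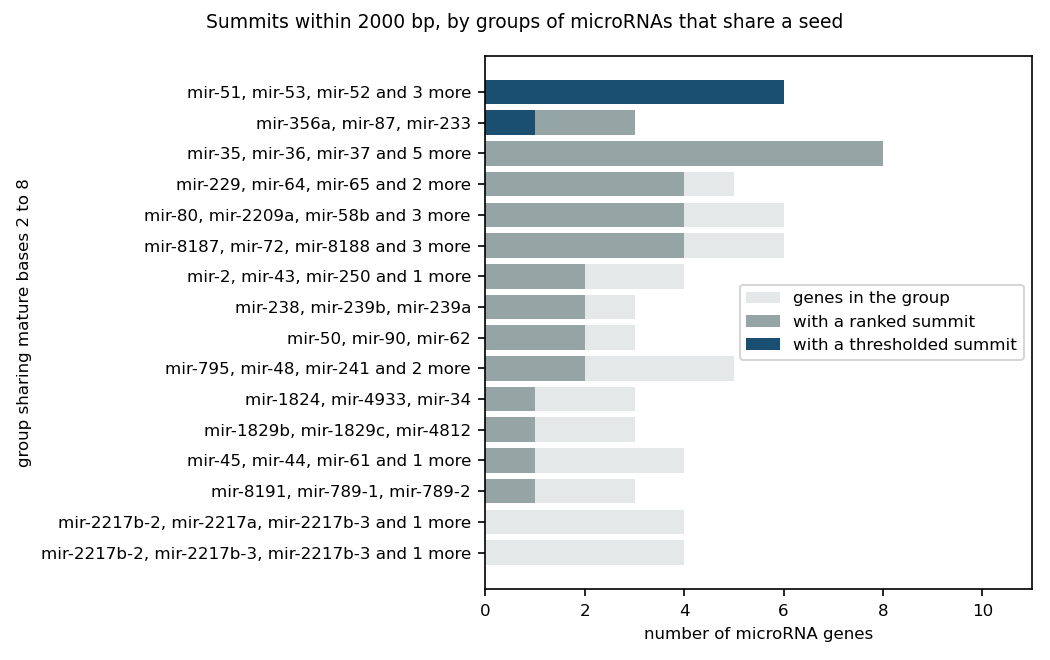
Genes in each of the 16 groups that share mature bases 2 to 8. Bars give the number of genes, the number with a kept ranked summit and the number with a thresholded summit within 2000 bp. The group of mir-51 to mir-56 is fully thresholded (6 of 6), and the mir-35 group is ranked throughout (8 of 8) with no thresholded summit. Over all 261 microRNA genes, 38.7% had a ranked and 5.36% a thresholded summit.

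The mir-87 gene, in an intron of kup-1, had 4 ranked summits, of which those 1108 bp upstream and 64 bp downstream of it were thresholded. The upstream summit had a series signal of 94.8, and 51.1 in replicate 1 and 46.1 in replicate 2 (48.6 ± 3.54, SD, n = 2), and passed in both replicates. The downstream summit had a series signal of 73.7, and 49.2 in replicate 1 and 29.3 in replicate 2 (39.3 ± 14.1, SD, n = 2). It passed in replicate 1 only, was not in the conservative list, and is the mir-87 peak printed above with its CATTGT.

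The mir-58 family, the worm relatives of bantam of Drosophila and among the most abundant microRNAs of the animal, had a call at 1 gene. The summit 167 bp upstream of mir-58a, in an intron of Y67D8A.2 as is the gene, had a series signal of 107.2, and 55.6 in replicate 1 and 49.5 in replicate 2 (52.6 ± 4.34, SD, n = 2). It passed in both replicates and was in the conservative list. The ranked summits nearest to mir-80 (35.3), mir-81 (38.4) and mir-82 (44.8) each had a partner in 1 replicate alone, and mir-58b and mir-58c had none within 2000 bp.

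A promoter fragment of mir-228 is widely used to mark glia in C. elegans. The summit 379 bp upstream of mir-228, outside any protein-coding gene, had a series signal of 106.5, and 69.6 in replicate 1 and 39.6 in replicate 2 (54.6 ± 21.3, SD, n = 2). It was in the conservative list and passed in replicate 1 only.

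The other 4 thresholded genes are less studied. The summit 47 bp upstream of mir-5549 lay 121 bp upstream of the 5′ end of rfc-4, which codes for a subunit of the clamp loader of DNA replication. It also lay 420 bp upstream of a 5′ end of eef-1A.1. The signal of this summit was 45.6 in replicate 1 and 66.1 in replicate 2 (55.8 ± 14.5, SD, n = 2), with a series signal of 102.5. The summit 1573 bp from mir-59 lay 146 bp upstream of znf-207, with 40.9 in replicate 1 and 46.6 in replicate 2 (43.7 ± 4.05, SD, n = 2) and a series signal of 85.1. Both are thus within promoter-proximal sequence of protein-coding genes, which ran here from 1000 bp upstream to 200 bp downstream of the 5′ end of any of their protein-coding transcripts. At mir-2215, 1617 bp upstream, the series signal was 80.0, replicate 2 had 46.1 and replicate 1 had no ranked summit within 100 bp, although its thresholded list held another summit within 2000 bp of the gene. At mir-4937, 1207 bp downstream, it was 74.8, with 46.7 in replicate 1 and 26.8 in replicate 2 (36.7 ± 14.0, SD, n = 2). The peaks of mir-59 and mir-2215 passed in neither replicate alone, that of mir-5549 in replicate 2 only and that of mir-4937 in replicate 1 only.

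Of the 13 thresholded summits, 8 passed the threshold of replicate 1 by itself, 7 that of replicate 2, 5 both and 3 neither. The share past both, 38.5% (17.7 to 64.5), compares with 47.0% of all kept thresholded summits (226 of 481). Those 5 stood at mir-51 with mir-53, mir-52 (both summits), mir-58a and mir-87. A ranked summit within 100 bp was present in both replicates for 65 of the 106 summits (61.3%) and for 58.8% of all kept summits. Across those 65 summits the replicate signals had a Spearman rho of 0.70, and across the 4731 kept summits with both values 0.42. Summits share the same libraries, caller and control, so both values are descriptions.

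Several strong summits were ranked but not thresholded. Those nearest to mir-249 (922 bp upstream) and mir-239b (1868 bp downstream) had series signals of 158.1 and 153.5, close to the upstream mir-52 summit. At mir-249 the signal was 65.9 in replicate 1 and 93.7 in replicate 2, and at mir-239b it was 53.3 and 97.3. Their IDR values, 0.0026% and 0.0031%, lie within the threshold, yet neither is in the thresholded, conservative or replicate thresholded lists. In the same way, 93 of 574 kept summits with such an IDR were absent from the thresholded list. Of the 36-base words within 100 bp of the summit, 100% at mir-249 and 62.1% at mir-239b occurred more than once in the genome, against a mean of 2.67% over the 106 summits and 5.65% over all kept summits. Their GC content within 100 bp was 24.9% and 23.4%, against a median of 43.8% over the 106. The part of repeats in these signals was not tested.

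The next strongest unthresholded summit lay 724 bp upstream of mir-62, a microRNA made from a spliced intron of ugt-50. It lay 257 bp downstream of the nearest 5′ end of ugt-50 and 424 bp upstream of the 5′ end of another ugt-50 transcript, which makes it promoter-proximal, with a series signal of 104.1, and 59.4 in replicate 1 and 43.4 in replicate 2 (51.4 ± 11.3, SD, n = 2). Its IDR in the ranked list was 2.65%, and it was in the conservative list. At mir-2216 (series signal 74.7) the summit lay 236 bp upstream of cap-2, which codes for a subunit of actin capping protein. It also lay 240 bp upstream of gmps-1, which holds mir-2216 in an intron on the same strand, and so was promoter-proximal to each. The signal of this summit was 28.2 in replicate 1 and 48.9 in replicate 2. The summit 1880 bp upstream of mir-42, also within 2000 bp of mir-43, had a series signal of 69.4, and 26.7 in replicate 1 and 37.2 in replicate 2. Both passed in replicate 2 alone.

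The rest of the 12 strongest genes without a call had series signals between 63.3 and 73.9, and all 6 of their summits were promoter-proximal to a protein-coding gene. These genes were mir-1824, mir-392, mir-4936, let-7, mir-354 and mir-5550. The let-7 summit lay 1836 bp upstream of the annotated let-7 gene, which spans 1732 bp, and 146 bp upstream of the 5′ end of C05G5.2. Its signal was 68.8 in the series, 26.9 in replicate 1 and 38.9 in replicate 2 (32.9 ± 8.48, SD, n = 2), with an IDR of 7.58%.

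The mir-35 family, the other one needed for embryonic viability and expressed from oogenesis to early embryos, had 4 ranked summits at 2 loci with a median signal of 52.3. The strongest was the summit upstream of mir-42 described above (69.4). The others had 56.7 (1952 bp from mir-35, with 39.1 in replicate 1 and no partner in replicate 2), 47.95 (159 bp from mir-42, with 35.2 in replicate 2 and no partner in replicate 1) and 37.1. The last, the summit shared by mir-35 to mir-41, lay 22 bp upstream of mir-35, with 25.4 in replicate 2 and no ranked partner in replicate 1. The nearest thresholded summit to mir-35 was 2575 bp away. No difference between the mir-35 and mir-51 families was tested.

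None of the developmental timing, neuronal and muscle microRNAs had a thresholded summit, but with 5.36% of all microRNA genes called these lists are too short to read anything from that. Their ranked counts, 1 of 6, 3 of 7 and 1 of 1, stand beside 38.7% of all microRNA genes. Of the 6 heterochronic genes let-7 alone had a ranked summit, and the nearest kept summits to lin-4 and mir-48 were 11751 and 16901 bp away. Of 7 neuronal genes, mir-124 (38.2), mir-273 (34.0) and mir-790 (53.99) had ranked summits. That of mir-124 had a partner in replicate 1 alone and that of mir-790 in replicate 2 alone. The IDR was 84.8% at mir-124 and at mir-273. The nearest kept summit to lsy-6, which sets the left-right difference of the ASE taste neurons, was 22310 bp away. The muscle microRNA mir-1 had 1 ranked summit at 873 bp with a series signal of 53.0, present in replicate 1 (36.4) and without a partner in replicate 2. In the mir-64 family 1 summit (40.1), with a partner in replicate 1 alone, was shared by all 4 genes. In the mir-44 family mir-44 alone had one (47.95), with a partner in replicate 2 alone. In the mir-2 family mir-2 (61.6) and mir-43 had one, and in the stress list mir-239b did.

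**Figure D4:**
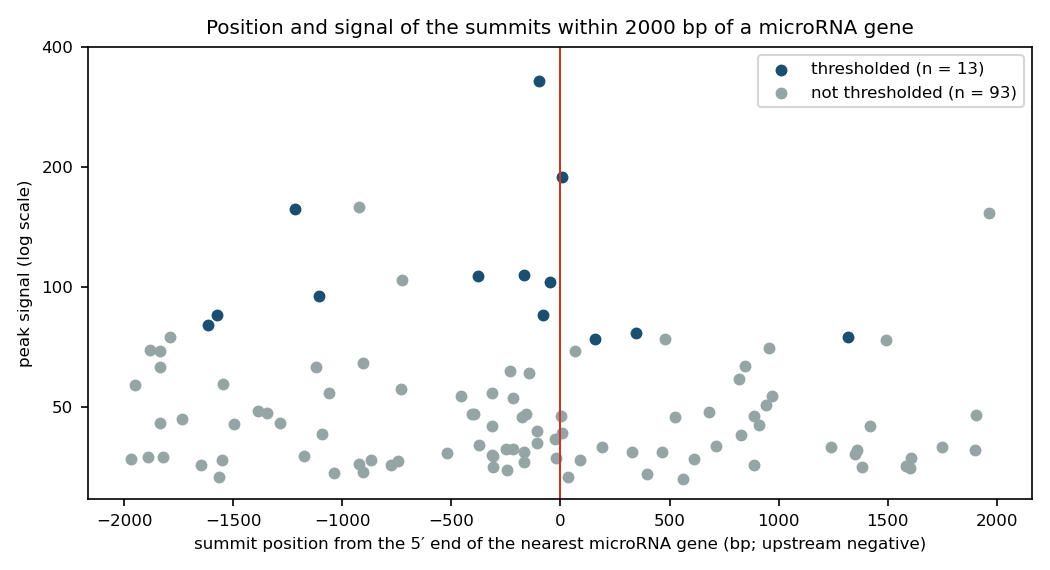
Each of the 106 summits by its position from the 5′ end of the nearest microRNA gene (x axis, upstream negative) and its series signal (y axis, log scale). Thresholded summits (n = 13) lie above 73 in signal, and 8 of them lie within 500 bp of the gene.

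Summits lay more often upstream than downstream, both at the nearest microRNA gene and around protein-coding 5′ ends. Of 106, 65 were upstream of the microRNA gene (61.3%), 5 inside and 36 downstream. Of the 13 thresholded, 9 were upstream (69.2%), 1 inside and 3 downstream. Around protein-coding 5′ ends, 59.5% of all kept summits within 2000 bp and 83.1% of thresholded ones were upstream. The median distance to the microRNA gene was 251 bp for thresholded and 817 bp for other summits, and 8 of 13 against 35 of 93 lay within 500 bp. The farthest gene inside the 2000 bp limit was mir-1820 (1969 bp) and the nearest outside it was mir-259 (2003 bp).

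Most of the thresholded summits lay away from protein-coding promoters. Of the 13, 2 were promoter-proximal, 4 in introns and 7 outside protein-coding genes, whereas 51.8% of all kept thresholded summits were promoter-proximal. Over all 106 the promoter-proximal share was 27.4%, against 35.5% of kept ranked summits. A microRNA gene was nearer than any protein-coding 5′ end for 11 of the 13 and for 76 of the 106. Every summit here was chosen for lying within 2000 bp of a microRNA gene, so that choice partly sets these 2 counts. By host, ranked summits stood near 50 of 155 genes outside protein-coding genes (32.3%), 29 of 68 in introns on the same strand (42.6%) and 17 of 31 in introns on the opposite strand (54.8%). Clusters weigh on the last share. It includes mir-35 to mir-41, which share a summit with a signal of 37.1, and mir-54 to mir-56, which share theirs.

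The counts were uneven over chromosomes. Chromosome IV held 7 of the 14 genes with a thresholded summit among its 50 microRNA genes, X held 4 of 74, and II, III and V held 1 each. The 4 genes on X share 1 thresholded summit. Over all chromosomes the thresholded shares were 5.36% of microRNA genes and 2.52% of protein-coding genes, and the latter was not counted by chromosome. On chromosome III 18 of 27 microRNA genes (66.7%) had a ranked summit, against 33.7% of its protein-coding genes. On chromosome V 2 of 28 did (7.14%), mir-87 and mir-253, against 20.8% of its protein-coding genes. Clusters weigh on these counts, as with mir-64, mir-65, mir-66 and mir-229 on III, which share 1 summit.

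The SOX core motif, searched as CATTGT or CTTTGT on either strand up to 50 bp from the summit, was present at 21 of 106 summits (19.8%, 13.3 to 28.4), against 17.2% of all kept summits (1383 of 8046). Among the thresholded summits it was at 4 of 13 (30.8%, 12.7 to 57.6), against 26.2% of all kept thresholded summits. The 4 were the upstream summit of mir-52, the downstream summit of mir-87, and those of mir-2215 and mir-4937. The strongest summit, at mir-51, held neither sequence in its whole printed peak. At mir-53 the peak held CTTTGT once, more than 50 bp from the summit, and at mir-52 the inner peak held CATTGT once, likewise outside the window. CATTGT alone was at 13.2% of the 106 summits and at 10.4% of all kept summits, and the POU octamer (ATGCAAAT or ATGCTAAT) was at 2 of 106, against 1.36%. A match of letters is not a bound site, and its absence from a window does not show that SOX-2 is absent.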

How the data were processed

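The deposited files are ce11 peak lists. A text list that came with the samples says that each replicate has a ranked and a thresholded list, and that the series lists were made from both replicates. The signal of a peak is a value the authors deposited, on a scale not given in the sources used here. Signal served to describe and rank peaks within a list. The authors' ranked lists of the series also hold the −log10 of the IDR, at most 5 in these files. Each thresholded peak was found among the ranked peaks, with a −log10 IDR of 2 or more. The same text list names an input, not described there, for thresholded lists alone. The aligner and peak caller were not given in the sources used here. In each of the 2 ranked lists of the series, 2 further signal columns name no sample and were not used. The lists hold no read counts, so the depth is unknown. The labels number the replicates as biological.

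Summits were placed on the Ensembl release 115 annotation with Python 3.11.15, pandas 2.3.3 and numpy 2.4.6, and replicate summits were paired within 100 bp. Pairing and motif search were tested on simulated positions. Names follow Ensembl, or RefSeq where Ensembl has no miRNA name (let-7). No test was run, because the series has 1 group of 2 replicates. Shares have Wilson 95% intervals. The genes named are those with a thresholded summit, the 12 with the strongest summit among the others, and the members of the gene lists that had one. The members and lists were chosen with earlier results of these data known. Alternatives changed the distance, the list, the left-out summits, the motif and the replicate. A count without promoter-proximal summits was added after seeing the data. Other genes were named after their values were seen.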

Additional observations from a re-analysis of the deposited data

How the results depend on the processing

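Genes with a thresholded summit numbered 10 within 500 bp, 11 within 1000 bp and 31 within 5000 bp, 10 to 14 in the lists of single replicates, 21 with no summits left out, 12 without promoter-proximal summits (added after seeing the data) and 5 when the summit had to pass in both replicates, against 14 as reported. The list of replicate 1 shared 8 of the 14 genes and that of replicate 2 shared 10. Genes with a ranked summit (101) fell to 49 within 500 bp and to 56 in the stronger part of the list, and reached 187 to 190 in the longer lists of single replicates. The 106 summits became 43, 65 and 232 within 500, 1000 and 5000 bp, 63 in the stronger part of the list and 268 to 292 in single replicates. A wider distance or a longer list holds more summits by construction. The motif share (19.8%) was 32.1% within 100 bp of the summit, 13.2% for CATTGT alone, 54.7% for ATTGT or TTTGT and 30.8% at thresholded summits; over all kept summits the shares were 29.1% within 100 bp and 58.7% for ATTGT or TTTGT. The median signal (45.3) was 43.4 with 1 summit a gene and 25.4 to 26.4 in single replicates, whose signal is on its own level. With 2 replicates of 1 group, unknown depth and no control analysed here, no difference was tested, and signal without specific binding was not tested.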

Other observations

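Summits left out for lying within 500 bp of a tRNA, snoRNA or snRNA gene stood near further microRNA genes. Of 7 such summits, 2 were thresholded. One, at X:1880718-1881001 inside a tRNA gene, lay within 2000 bp of mir-1018, mir-4921, mir-4923a, mir-4923b and mir-4925, and had a series signal of 132.3, with 59.8 in replicate 1 and 73.3 in replicate 2 (66.6 ± 9.54, SD, n = 2). The other, at X:16209716-16209999 and 6 bp from a tRNA gene, lay near mir-1819 and mir-2212 and had a series signal of 158.7, with 99.9 in replicate 1 and 57.4 in replicate 2 (78.7 ± 30.0, SD, n = 2). The remaining 5, near mir-42 to mir-44, mir-235, mir-239a with mir-239b, mir-353 and mir-8207, had series signals between 34.9 and 62.9 and were not thresholded.

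Beside mir-52, 4 summits fell inside an annotated microRNA gene. They stood at mir-4936 (69.1), mir-4929 (47.3), mir-2209c (42.9, also within 2000 bp of mir-2208b and mir-2209a), and mir-4806 (33.3), and none was thresholded. All 4 had a ranked summit in both replicates.

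Widening the distance to 5000 bp brought further genes near a thresholded summit. Among them were mir-35 to mir-41, which share a summit 2575 bp from mir-35, and the neuronal genes mir-790 (4776 bp) and mir-791 (2786 bp). The summit reached from mir-790 is the one upstream of mir-228 described above. The shares of protein-coding genes and of nuclear bases at this distance are not given here. Of the summits within 2000 bp, 17 served several microRNA genes, and 23 genes had several summits.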
